A study of Mus musculus with 33 samples.

Results

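Cytosolic ribosomal proteins are the protein subunits of the ribosome that translates messenger RNA outside the mitochondria. Their genes were taken by symbol (Rpl or Rps with a number, plus Rplp0, Rplp1, Rplp2 and Rpsa, without the Rps6k kinases), which found 83 genes among the 32245 rows of each of 3 tables of normalized counts. The libraries hold RNA labelled as nuclear, depleted of ribosomal RNA, from cardiomyocytes, which are the contracting muscle cells of the mouse heart. The FST line held Ptpmt1 cardiomyocyte-specific knockouts that also carried an Eif2a mutation (the double, 3 libraries), Ptpmt1 knockouts alone (3), Eif2a mutants alone (3) and controls (3). The PHT line held doubles with the Ptpmt1 knockout and an Hri knockout (2), Ptpmt1 knockouts alone (3), Hri knockouts alone (2) and controls (2). The PTGC line held doubles with the Ptpmt1 knockout and a Gcn2 knockout (3) and controls (3), with neither single mutant in the table. The labels call the Hri knockout cardiomyocyte-specific where it is alone and name no cell type for it in the double. The sources used here do not give the Cre driver, the age and strain of the animals, the alleles carried by the controls or whether libraries of a group came from separate animals. P-values therefore measure the spread between these libraries.

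The large subunit carries Rpl proteins around the centre that forms peptide bonds, and the small subunit carries Rps proteins around the site where codons are read. In mammals many of these messages begin with a run of pyrimidines, the 5' terminal oligopyrimidine tract, through which mTORC1 and its target Larp1 set their translation. Phosphorylation of eIF2alpha by Hri, Gcn2 and other kinases lowers translation initiation in general and favours Atf4, whose targets form the integrated stress response. Ptpmt1 is a phosphatase of the inner mitochondrial membrane that acts in the synthesis of cardiolipin. Because the RNA is labelled nuclear, the values describe messages and precursors in or near nuclei, not ribosomes or translation.

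Runs of pyrimidines near the start site were common in these genes. Promoter windows of 250 bases before to 50 bases after the start were found for 63 of the 83 genes in RefSeq (GRCm38.p6, the assembly called mm10). A run of 8 or more pyrimidines (C or T, sense strand) lay within 50 bases of the start in 79.4% of these windows, against 35.7% of all 27025 promoter windows. Such a run can lie anywhere in that stretch, and the longest run of Rpl10 began at base 41 after the start. The 79.4% is therefore not the share of genes with a tract at the start itself. The sequences below run from 30 bases before to 20 bases after the start, on the gene's strand, with the longest pyrimidine run in capitals. The first 5 were chosen to show a run at or beside the start, and Rps21 and Rpl35a because several results below rest on them. In those last 2 the longest run lay further downstream, so no base is in capitals.
Rps6 (chr4:86857348-86857397, minus strand): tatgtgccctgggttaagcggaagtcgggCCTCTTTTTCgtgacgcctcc
Rps27 (chr3:90213629-90213678, minus strand): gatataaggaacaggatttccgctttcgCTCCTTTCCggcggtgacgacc
Rplp2 (chr7:141447621-141447670, plus strand): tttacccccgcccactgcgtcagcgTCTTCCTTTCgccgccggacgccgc
Rpl27a (chr7:109519165-109519214, plus strand): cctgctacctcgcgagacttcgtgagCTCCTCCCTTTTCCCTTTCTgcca
Rpl7a (chr2:26910777-26910826, plus strand): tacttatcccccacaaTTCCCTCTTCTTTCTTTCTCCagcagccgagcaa
Rps21 (chr2:180257349-180257398, plus strand): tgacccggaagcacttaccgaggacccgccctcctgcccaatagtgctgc
Rpl35a (chr16:33056423-33056472, plus strand): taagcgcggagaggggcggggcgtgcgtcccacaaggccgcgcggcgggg

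Rps6 is the small-subunit protein phosphorylated by S6 kinase, and its run of 10 pyrimidines spans the start. Rpl7a has the longest run of the 5, with 21 pyrimidines. The letters CTTTCC (sense strand, within 50 bases of the start) were in 27.0% of the members' windows and in 4.67% of all windows. CCGGAAG, the core read by ETS-family factors (either strand, whole window), was in 39.7% of them and in 9.12% of all windows. GGGCGG, the GC box (either strand, whole window), was in 60.3% and 35.9%, and TATAAA (sense strand, within 50 bases) in 7.94% and 3.69%. AAGATGG (sense strand, whole window), the core of the YY1 motif, was in 7.94% and 3.70%. TGATGCAA (either strand, whole window), the letters that Atf4 dimers are known to bind, was in 0 of the 63 windows and in 0.929% of all windows.

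The 83 genes lay on 19 chromosomes, and their main coding transcripts (GENCODE vM21) ran from 345 bases for Rps27 to 3706 bases for Rps20. At 95% identity or more over at least 50% of the transcript, 58 members had at least 1 annotated pseudogene copy, 399 in all, up to 35 for Rpl7a. None of those copies has a row in the tables, and the sources used here do not name the read counter or how it treats reads with several matches. SnoRNAs, the small guides of ribosomal RNA modification, lay inside 30 of the genes, and exons of 22 overlapped another gene. Levels of those genes may therefore hold reads of another transcript.

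Genes with a value of 10 or more in enough libraries to fill the smallest group were tested, and 80 of the 83 members were tested in every table. Per kb of main transcript and averaged over all libraries of a table, Rps14, a small-subunit protein, ranked first in PHT and PTGC and second in FST, where Rpl4, a large-subunit protein at the peptide exit tunnel, ranked first at 5219 normalized counts per kb. Rps14 stood at 10151 in PHT, 8230 in PTGC and 5044 in FST, and the tables were normalized separately, so these levels are not compared between tables. Rplp1, a protein of the acidic stalk that recruits translation factors, and Rps15 were among the first 5 in every table. Rpl8, of the peptidyl transferase region, stood at 4915 per kb in FST. At the other end, Rpl7l1 stood at 227 per kb in FST and Rps20 at 511, with Rps20 read over a transcript of 3706 bases. That transcript was chosen by its annotation, not by its use in these libraries. Before division by length Rps20 ranked 35th of 83 in PTGC, so its low place per kb depends on the transcript chosen. The FST and PTGC orders were close: no member moved by more than 10 of 83 places, with a median move of 2 places. Between FST and PHT 41 members moved by more than 10 places, with a median move of 10. Rpl29 was 76th in FST and 29th in PHT, Rpl41 32nd and 2nd, and Rpl10 37th and 5th, while Rps21 was 26th and 63rd and Rpl22 22nd and 55th. Whether the counting differed between the tables was not tested.

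Several members have a paralogue with a restricted or low expression, and their levels were read against the partner gene. Rpl3l, the striated-muscle form of Rpl3 that is known from adult mouse heart, had 99 reads in 26 of the 27 libraries, out of 311076231 reads. Its level reached at most 5.45 normalized counts in FST, 9.73 in PHT and 6.41 in PTGC, and Rpl3 stood 1508-fold higher per kb in FST, 2169-fold in PHT and 1697-fold in PTGC. The sources used here do not give the age of the animals, so these Rpl3l levels are not set against adult heart. Rpl39l, a form known from mouse testis, had 38 reads in 17 libraries. Rpl10l, the autosomal form of Rpl10 used in mouse male germ cells, had 0 reads in every library, which allows up to 3 reads in each by counting error alone. These 3 genes did not reach the filter and were not tested.
The other paralogues had reads in every library. Per kb of transcript, Rpl22 stood 5.74-fold above Rpl22l1 in FST, 4.15-fold in PHT and 5.26-fold in PTGC. Rps27 stood 3.95-fold above Rps27l, which is known as a p53 target in mouse cells, in FST, 4.64-fold in PHT and 4.18-fold in PTGC. Rpl7 stood 15.1-fold above Rpl7l1 in FST, 18.6-fold in PHT and 14.9-fold in PTGC. Rps4l has no row in the tables and is not analysed here.

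**Figure D1:**
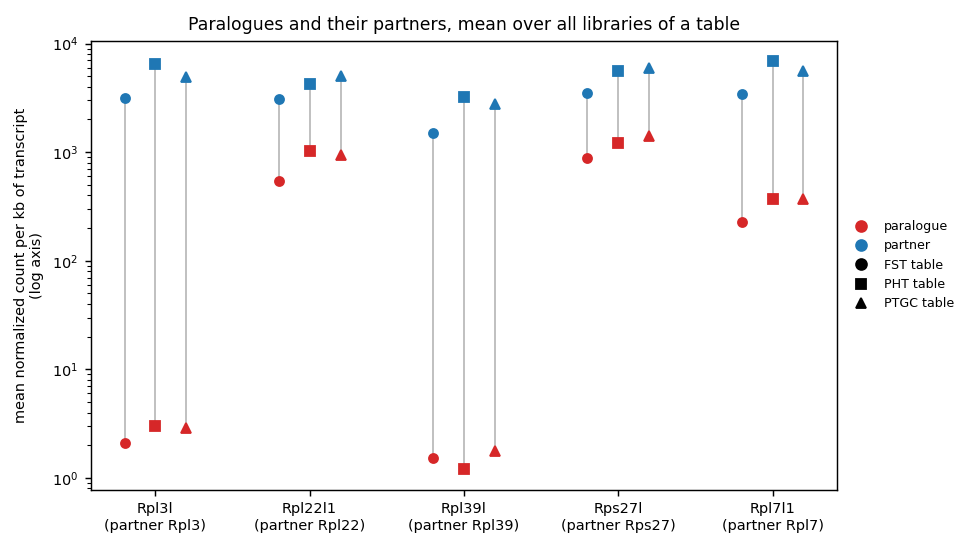
Mean normalized count per kb of main transcript (log axis) of 5 paralogues (red) and their partners (blue), averaged over all libraries of the FST (circles), PHT (squares) and PTGC (triangles) tables. Rpl3l and Rpl39l lie below 5 per kb in every table, and the other paralogues lie between 227 and 1418 per kb.

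Read totals per library were 1887978 to 12583868 in FST, 10739569 to 19405261 in PHT and 10795644 to 19326112 in PTGC. FST double replicate 2 is the library with 1887978 reads, and FST Eif2a mutant replicate 1 had reads in 15157 genes, the fewest. All 17 cardiomyocyte markers had reads in every table and made up 5.78% to 8.75% of a library. Ptpmt1 averaged 45.2 ± 4.87 normalized counts in FST doubles, 35.5 ± 4.71 in FST Ptpmt1 knockouts, 157 ± 6.69 in Eif2a mutants and 163 ± 10.3 in controls (SD, n = 3 each), and it was also below controls in every PHT and PTGC library with the knockout. A male expression pattern was found in 3 of 3 FST Ptpmt1 knockouts, 3 of 3 Eif2a mutants and 2 of 3 FST doubles, against 1 of 3 FST controls, and 2 of 2 PHT doubles, 1 of 3 PHT Ptpmt1 knockouts and 2 of 2 Hri knockouts, against 0 of 2 PHT controls. Sex and genotype are thus unevenly mixed in both lines. Between PHT controls and the Hri knockouts or PHT doubles, sex pattern and genotype coincide and cannot be told apart from these groups alone.

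The ribosomal protein genes together made up 1.66% to 3.06% of a library. In FST the share was 2.08%, 1.82% and 2.06% in doubles, 1.66%, 1.99% and 1.89% in Ptpmt1 knockouts, 1.83%, 1.88% and 1.87% in Eif2a mutants and 1.71%, 1.77% and 2.05% in controls. In PHT it was 2.36% and 3.06% in doubles, 2.74%, 2.66% and 2.73% in Ptpmt1 knockouts, 2.33% and 2.76% in Hri knockouts and 2.62% and 2.52% in controls. In PTGC it was 1.85%, 1.68% and 1.94% in doubles and 1.87%, 1.77% and 1.94% in controls. The groups overlapped in every table except that all 3 PHT Ptpmt1 knockouts lay above both PHT controls. In these bulk libraries fewer cells of a type and less RNA per cell cannot be told apart.

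**Figure D2:**
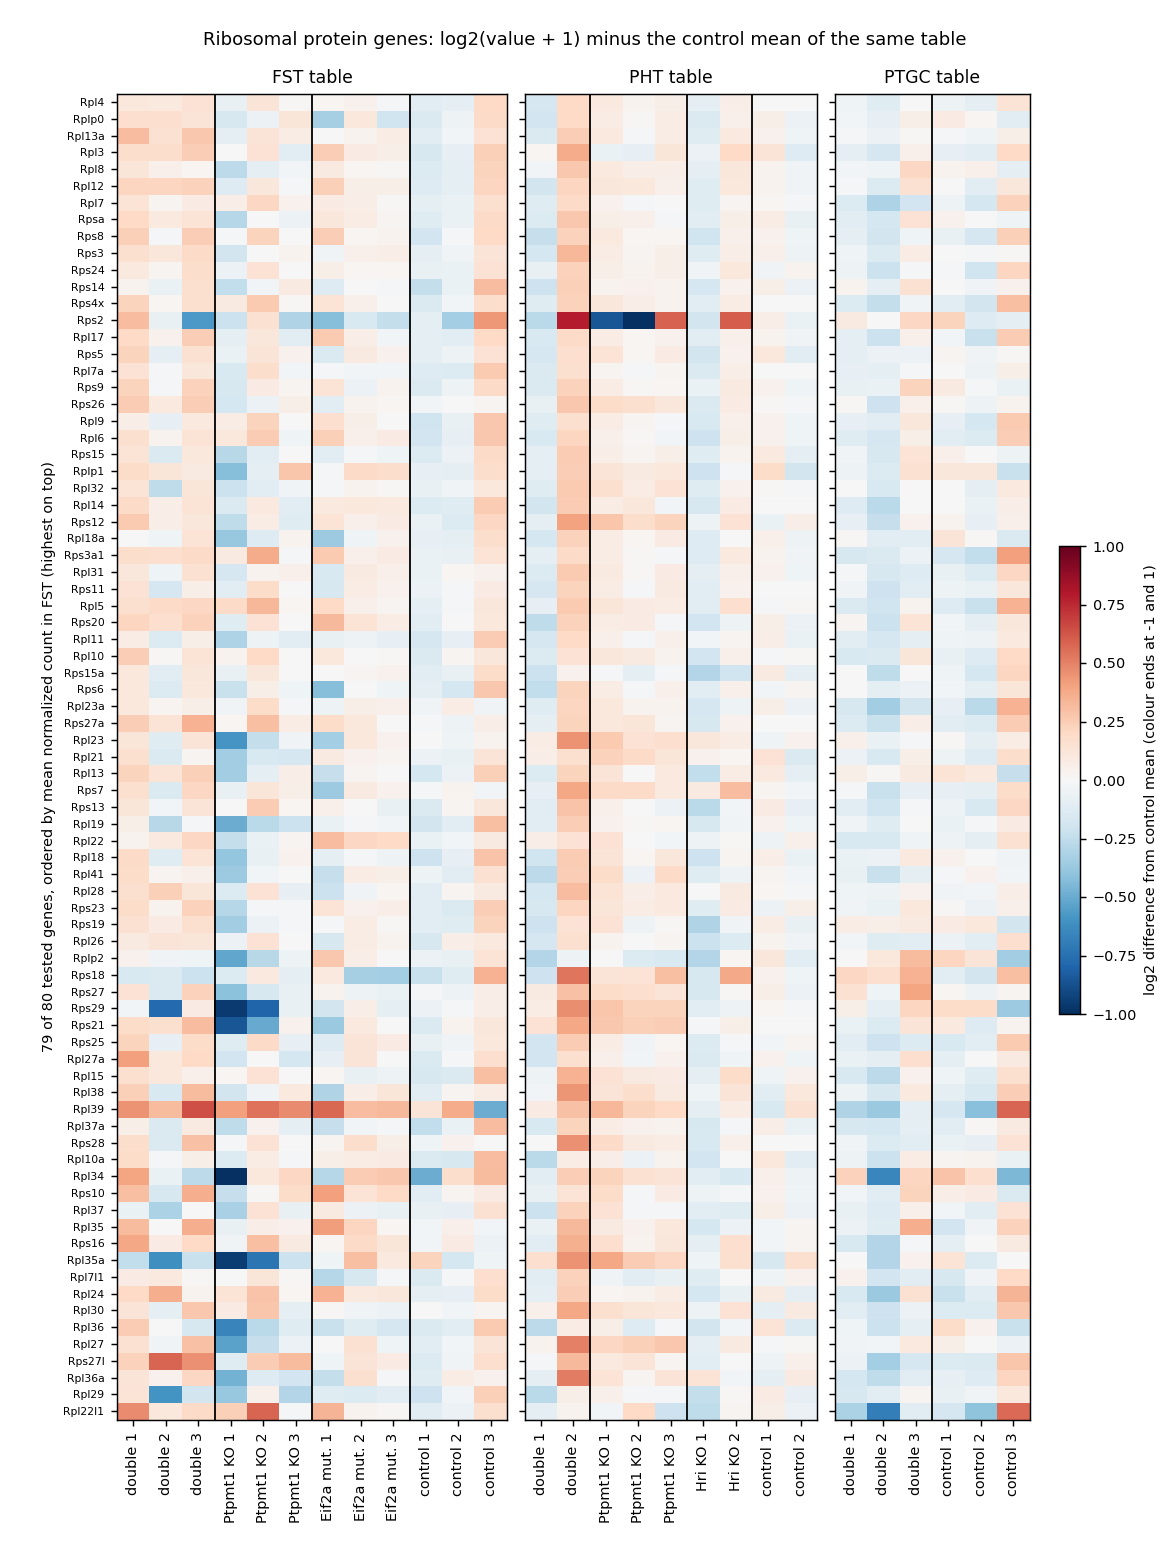
Each row is 1 of 79 of the 80 tested members and each column 1 library, with doubles on the left and controls on the right of each table. Colour gives log2(value + 1) minus the control mean of that table, red above and blue below, ending at -1 and 1. Most cells lie near 0, PHT double 2 is red almost throughout, and FST Ptpmt1 knockouts 1 and 2 hold a block of blue among Rps29, Rps21 and Rpl35a.

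No member passed the threshold in any of the 13 comparisons. The test was limma on log2(value + 1), with all groups of a table in 1 fit and Benjamini-Hochberg adjustment over all tested genes, and called means an adjusted p under 0.05. The share of all tested genes called was 0.504% for the FST Ptpmt1 knockout against control, 0.036% for the Eif2a mutant against control, 0.144% for the FST double against control, 0.878% for the FST double against the Ptpmt1 knockout, 0.0072% for the FST double against the Eif2a mutant and 0.0216% for the FST interaction. The interaction is the double minus the second mutant, less the Ptpmt1 knockout minus control. In PHT the share was 0.301% for the Ptpmt1 knockout against control, 0.02% for the Hri knockout against control, 0.0267% for the double against control, 0.327% for the double against the Ptpmt1 knockout, 0.02% for the double against the Hri knockout and 0.12% for the interaction. It was 0.743% for the PTGC double against control. With so few genes called, 0 of 80 lies near the background in each comparison. edgeR's quasi-likelihood test on the recovered reads also called 0 members in all 13. DESeq2 called Rpl35a in the FST Ptpmt1 knockout (log2 fold change -0.61, adjusted p = 0.0153) and Rps21 (0.61, adjusted p = 0.0255) and Rpl27a (0.38, adjusted p = 0.0357) in the FST double against the Ptpmt1 knockout, and 0 members elsewhere. DESeq2 called 5.56% of the genes it gave an adjusted p in the first of these comparisons and 2.47% in the second.

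The precision behind these results was similar across tables. The median half-width of the 95% interval of a member's log2 fold change was 0.23 in the FST comparisons of 2 groups and 0.32 in the FST interaction, and 0.22 to 0.24 in PHT comparisons of 2 groups. For the PTGC double against control the interval lay within ±0.5 for 75 of 80 members and within ±1 for all 80. For the FST Ptpmt1 knockout against control it lay within ±0.5 for 65 members and within ±1 for 78. For the PHT Ptpmt1 knockout against control those counts were 77 and 79, and Rps2 was the member with the interval beyond -1, reaching -1.24.

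**Figure D3:**
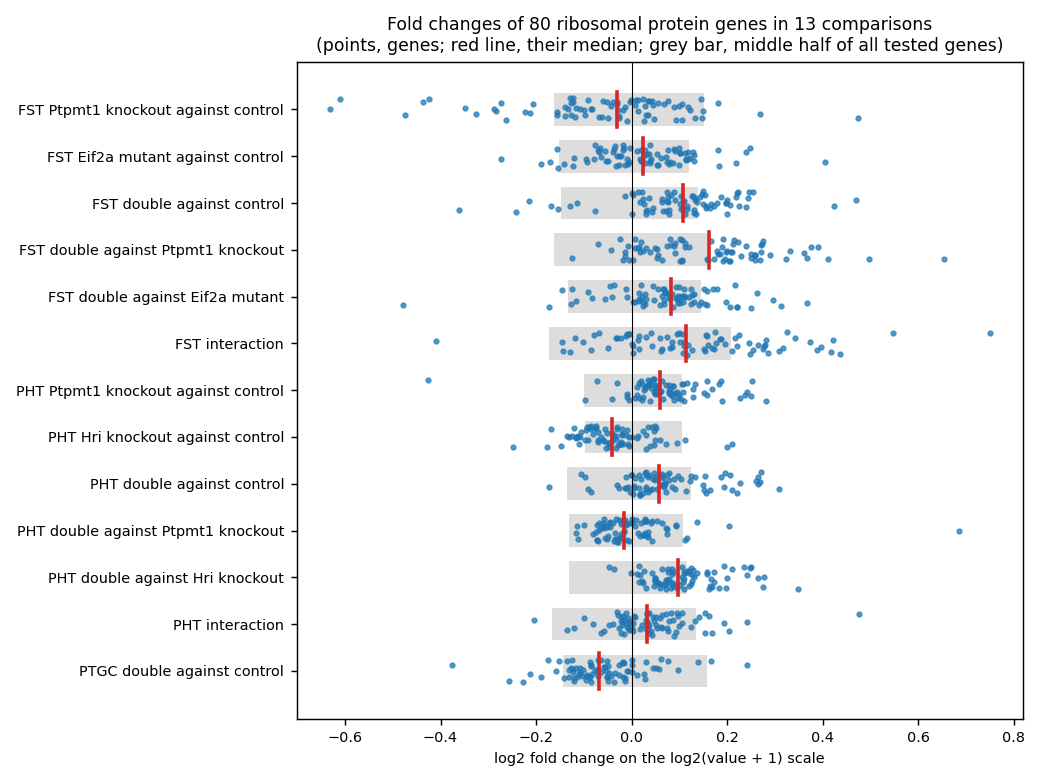
Log2 fold changes (log2(value + 1) scale) of the 80 tested members in each of the 13 comparisons, 1 point per gene. The red line is their median and the grey bar spans the quartiles of all tested genes. Medians run from -0.07 for the PTGC double to 0.16 for the FST double against the Ptpmt1 knockout, and most points lie inside or near the grey bars.

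In the FST line Rpl35a and Rps29 were lowest and Rpl39 highest in the Ptpmt1 knockout, and Rps21 was highest in the double against the knockout. Rpl35a, a large-subunit protein linked to human Diamond-Blackfan anaemia, had 577, 446 and 588 normalized counts in doubles, 354, 412 and 590 in Ptpmt1 knockouts, 665, 842 and 732 in Eif2a mutants and 799.7, 605 and 663 in controls. All knockout and all double libraries lay below all controls. Its log2 fold change in the knockout was -0.63 ± 0.17 (SE, limma adjusted p = 0.121, n = 3 each).
Rps29, a zinc-binding protein of the small-subunit head, had 1336, 796 and 1441 normalized counts in doubles, 703, 783 and 1296 in Ptpmt1 knockouts, 1204, 1428 and 1277 in Eif2a mutants and 1308, 1356 and 1430 in controls. Ptpmt1 knockout replicates 1 and 2 and double replicate 2 were the 3 low libraries. Its log2 fold change in the knockout was -0.61 ± 0.21 (limma adjusted p = 0.223).
Rps21, a small-subunit protein, had 1352, 1330.3 and 1473 normalized counts in doubles, 658, 840.4 and 1226 in Ptpmt1 knockouts, 918, 1271 and 1185 in Eif2a mutants and 1075, 1218 and 1287 in controls. All doubles lay above every other FST library. The double exceeded the Ptpmt1 knockout by 0.65 ± 0.17 on the log2 scale (limma adjusted p = 0.0878), and the interaction was 0.75 ± 0.24 (adjusted p = 0.62).

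Knockout replicate 3 was the highest of the 3 knockouts in these genes. It also held the highest FST share of fibroblast markers: all 10 had a row and none was at 0 in all libraries, and together they made up 0.152% to 0.304% of Ptpmt1 knockouts, against 0.141% to 0.176% of controls, and their part in the result was not tested. Without that library, limma called 5 members lower in the FST Ptpmt1 knockout, among them Rpl35a (log2 fold change -0.84, adjusted p = 0.00564), Rps21 (-0.68, adjusted p = 0.0111), Rps29 (-0.88, adjusted p = 0.0134) and Rplp2 (-0.40, adjusted p = 0.033). This stands beside 6% of all genes called without that library, so 5 of 80 lies near the background. Without the library 3 members were called higher in the double than in the knockout, Rps21 (0.89), Rpl27 (0.52) and Rps26 (0.32), beside 2.3% of all genes. Rps21 was the member called in the interaction (0.99, adjusted p = 0.0393), beside 0.248% of all genes.
The median over the 20 shortest, up to 570 bases, differed from the control mean by 0.13, -0.12 and 0.12 in doubles, by -0.24, -0.08 and -0.02 in Ptpmt1 knockouts, by -0.05, 0.06 and 0.00 in Eif2a mutants and by -0.09, -0.04 and 0.10 in controls. Over the 20 longest, from 1059 bases, it differed by 0.16, 0.10 and 0.14 in doubles and by -0.13, 0.14 and -0.01 in knockouts. Other genes of up to 570 bases that encode no ribosomal protein, 43 in FST, were set beside them. Their median was -0.11, -0.31 and -0.18 in doubles, -0.34, -0.31 and -0.03 in knockouts and between -0.18 and -0.08 in Eif2a mutants. The median over all 5514 other genes with a mean at least that of the lowest tested member was between -0.02 and 0.02. Level was not matched beyond that limit. Lengths here are those of the annotated main transcript, which may not be the one used in these libraries. Rps20 is among the 20 longest by this measure. The part of message length in the results above was not tested.

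**Figure D4:**
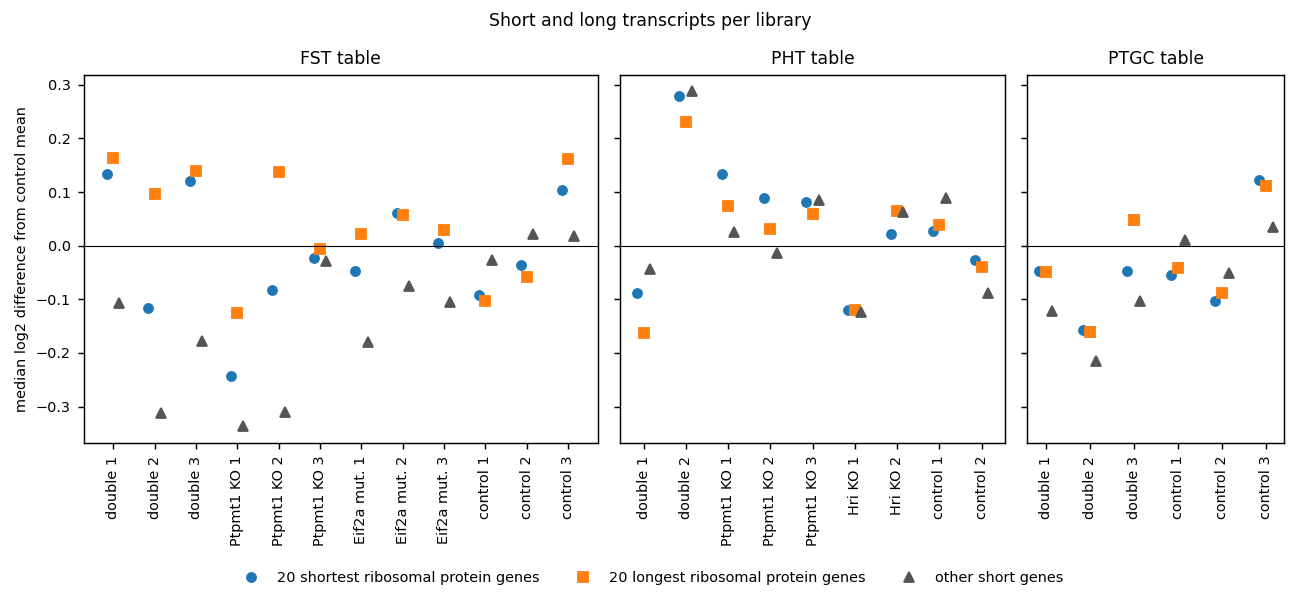
Median log2 difference from the control mean in each library for the 20 shortest members (circles), the 20 longest members (squares) and other genes of up to 570 bases (triangles). In FST the triangles lie lowest in double 2 and in Ptpmt1 knockouts 1 and 2. In PHT all 3 classes are highest in double 2.

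Rpl39, the small protein lining the exit tunnel, gave the largest positive fold change of the FST Ptpmt1 knockout against control. It had 983, 897 and 1126 normalized counts in doubles, 956, 1048 and 1001 in Ptpmt1 knockouts, 1073, 893 and 904 in Eif2a mutants and 787, 931 and 510.2 in controls. All 3 knockouts lay above all controls, with control replicate 3 the lowest, and the log2 fold change was 0.47 ± 0.16 (limma adjusted p = 0.222). Without control replicate 3 it was 0.226. In PTGC it was the control replicate 3 that stood high, at 2703, against 1602 and 1348 in the other controls and 1461, 1392 and 1682 in the doubles. Reads from mitochondrial messages made up 0.675% of FST control 3, the lowest share of that table, and 3.42% of PTGC control 3, the highest of its table. FST controls 1 and 2 both exceeded control 3 in that share and in Rpl39. Between controls 1 and 2 the order was reversed, with 1.70% and 1.55% beside Rpl39 at 787 and 931. A link between that share and Rpl39 was not tested.
Rpl34, of the large subunit, varied within groups more than any other FST member, with a within-group SD of 0.63 on the log2 scale. It had 1059, 769 and 672 in doubles, 241, 866 and 930.0 in Ptpmt1 knockouts, 659.7, 959 and 971 in Eif2a mutants and 571, 909 and 1004 in controls.

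**Figure D5:**
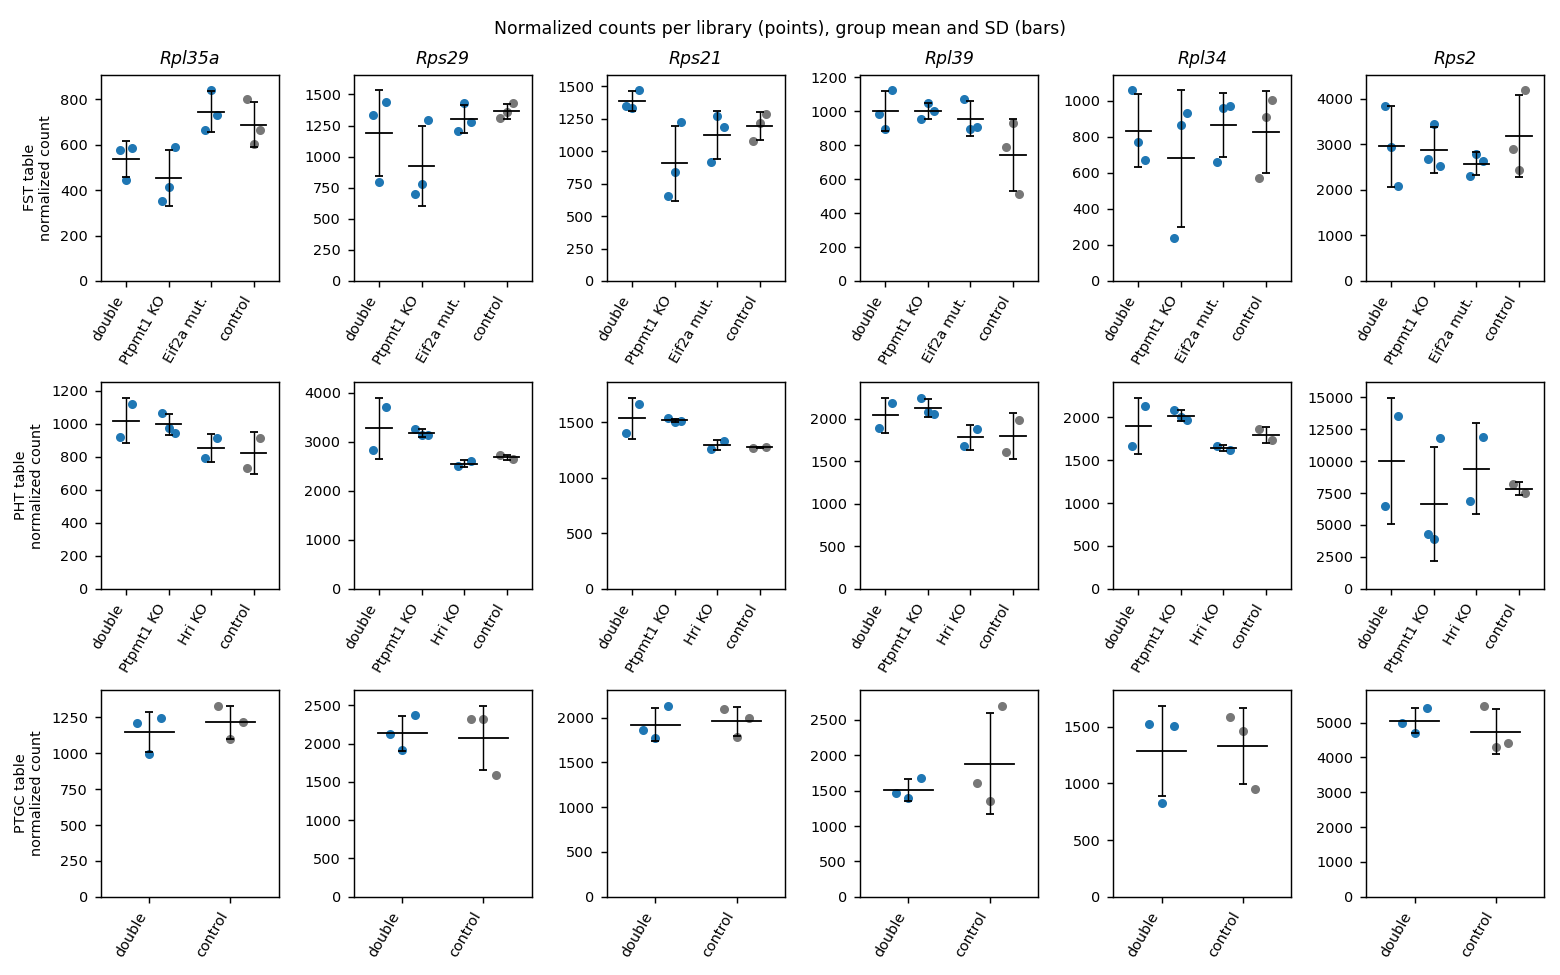
Normalized counts of 6 members in each library (points) with the group mean and SD (bars), for the FST, PHT and PTGC tables from top to bottom; every axis starts at 0. Rpl35a and Rps29 lie below controls in FST Ptpmt1 knockouts and above controls in PHT Ptpmt1 knockouts, and Rps2 spreads from 3888 to 13507 in PHT.

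Across all members, the FST Ptpmt1 knockout had a median log2 fold change of -0.03, with 31 of 80 positive, against a median of -0.01 over all tested genes. At an unadjusted p under 0.05, 1 member was higher and 11 were lower, 12 of 80 in all, beside 13.4% of all genes. All knockout libraries lay above all controls for 1 member (9.61% of all genes) and below for 6 (9.48%). The median was 0.06 with a term for the male or female expression pattern. Over the 13 comparisons, 48.1% to 51.4% of all tested genes were positive. Members moved together within libraries, so a count of positive members is not a count of independent results.
The Eif2a mutant against control gave a median of 0.02, with 2 members at an unadjusted p under 0.05 (7.97% of all genes) with 2 above all controls (8.37%) and 0 below (7.96%). Rpl22, of the large subunit, was one of them at 0.24 ± 0.08 (limma adjusted p = 0.495).
The FST double against control gave a median of 0.11 with 71 of 80 positive, 10 members were at an unadjusted p under 0.05, 9 of them higher (10.1% of all genes in either direction), and 10 lay above all controls (9.64%) and 1 below (9.87%). Rps27l was the member with the smallest p: it had 458, 583 and 536 normalized counts in doubles, 358, 465 and 485 in Ptpmt1 knockouts, 379, 426 and 412 in Eif2a mutants and 355, 379.8 and 439 in controls. All doubles lay above all controls (log2 fold change 0.42 ± 0.13, limma adjusted p = 0.269).
For the double against the Ptpmt1 knockout the median was 0.16, or 0.0714 without Ptpmt1 knockout replicate 1. It had 71 of 80 members positive, and 22 members were higher at an unadjusted p under 0.05 and 0 lower, beside 13.8% of all genes in either direction. In 20 members all doubles lay above all knockouts (8.95% of all genes) and in 1 below (8.87%), which was Rps18 at -0.13 ± 0.14. Rpsa, the laminin receptor protein of the small subunit, had 4179, 3889 and 4014 normalized counts in doubles and 2993, 3632 and 3501 in Ptpmt1 knockouts, a difference of 0.26 ± 0.09. Rplp2 had 1332, 1264 and 1253 in doubles and 903, 1066 and 1247 in knockouts, a difference of 0.27 ± 0.11. This comparison shares its knockout libraries with the knockout against control.
The double against the Eif2a mutant gave a median of 0.08, with 8 members higher and 1 lower at an unadjusted p under 0.05 (8.14% of all genes) and 13 above all mutants (6.71%) and 1 below (8.23%). Rplp0, the base of the ribosomal stalk, had 6024, 6024 and 5857 in doubles and 4269, 5784 and 4662 in mutants, a difference of 0.29 ± 0.11. The interaction had a median of 0.11, with 7 members at an unadjusted p under 0.05 (7.06% of all genes), all positive. With the term for the male or female expression pattern that median was 0.000255.

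In the PHT line deviations from the group means had a median correlation between members of 0.88 over the 9 libraries. It was 0.54 over 12 FST libraries and 0.60 over 6 PTGC libraries. In a group of 2 libraries, as in PHT doubles, Hri knockouts and controls, the 2 deviations mirror each other. The deviations of PHT libraries from their group means are therefore not independent, and the 3 tables are not ranked by this value. The members share depth and scaling of each library, and no test is attached. PHT double replicate 2 exceeded double replicate 1 in 80 of 80 members, by a median of 0.36 on the log2 scale, from 0.07 for Rpl22 to 1.05 for Rps2. Hri knockout replicate 2 exceeded replicate 1 in 75 of 80, by a median of 0.17. The median within the pair of doubles was wider than the median of any PHT comparison, which lay between -0.04 and 0.10.
Genes of red blood cells also differed between those libraries. Of 10 erythroid markers 9 had a row and 0 of these were at 0 in all libraries, and together they made up 0.39% and 0.688% of the doubles, 0.0553% to 0.262% of the Ptpmt1 knockouts, 0.33% to 0.473% of the Hri knockouts and 0.308% to 0.367% of the controls. Double replicate 2 held the highest share of both the erythroid markers and the ribosomal protein genes. The Hri knockouts ran the other way, with 0.473% erythroid markers and 2.33% ribosomal protein genes in replicate 1. Replicate 2 had 0.33% and 2.76%. Ptpmt1 knockout replicate 3, with the lowest erythroid share of 0.0553%, had 2.73% ribosomal protein genes. The part of red blood cells in the members' values was not tested.

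The PHT Ptpmt1 knockout against control gave a median of 0.06 with 72 of 80 positive, beside 50.9% of all tested genes. All 3 knockouts lay above both controls for 27 members, beside 12% of all genes, and below for 0 (11.6%). At an unadjusted p under 0.05, 5 members were higher and 0 lower (4.79% of all genes). Rps21 had 1536, 1505 and 1513 normalized counts in knockouts and 1269 and 1279.8 in controls, with no overlap (0.25 ± 0.08, limma adjusted p = 0.766). Rpl35a had 1069, 977 and 945 in knockouts and 734 and 915 in controls (0.28 ± 0.11, adjusted p = 0.983), and Rpl39 had 2245, 2081 and 2049 in knockouts and 1603 and 1987 in controls (0.25 ± 0.10). Rps29 had 3263, 3135 and 3132 in knockouts and 2721 and 2650.3 in controls, a difference of 0.24 on the log2 scale.
Rps2, a small-subunit protein at the messenger RNA entry, was the most variable PHT member, with a within-group SD of 0.70 on the log2 scale. It had 6515 and 13507 normalized counts in doubles, 4320.2, 3888 and 11806 in Ptpmt1 knockouts, 6904 and 11904 in Hri knockouts and 8197 and 7487 in controls. The groups overlapped, and the knockout differed from control by -0.43 ± 0.38. Rps18, of the small-subunit head, was next with an SD of 0.30.
The Hri knockout against control gave a median of -0.04, which was -0.121 without Hri knockout replicate 2 and 0.0473 without replicate 1, with 20 of 80 positive, 1 member at an unadjusted p under 0.05 (3.24% of all genes) and 8 below (14.4%) and 2 above (15%) all controls. Rps15a had 2872 and 3059 in Hri knockouts and 3737 and 3316 in controls (-0.25 ± 0.10). The double against control gave a median of 0.06, with 5 members higher at an unadjusted p under 0.05 (6.58% of all genes) and 7 above all controls (16.2%).
Without double replicate 1 that median was 0.239, and without double replicate 2 it was -0.124. The double against the Ptpmt1 knockout gave a median of -0.02, 0 members at an unadjusted p under 0.05 (8.29% of all genes) and 0 whose groups did not overlap (11.9% of all genes above, 12% below). The median was 0.174 without double replicate 1 and -0.197 without double replicate 2.
The double against the Hri knockout gave a median of 0.10 with 77 of 80 positive, 6 members higher at an unadjusted p under 0.05 (5.83% of all genes) and 7 above all Hri knockouts (15.6%). Its median was 0.296 without double replicate 1 and -0.0932 without double replicate 2. Rps29 had 2828 and 3712 in doubles and 2497 and 2596 in Hri knockouts (0.35 ± 0.11, limma adjusted p = 0.754). Without double replicate 1 Rps29 was called (0.54, adjusted p = 0.0445), the only member called then, beside 0.0647% of all genes. The PHT interaction had a median of 0.03 and 0 members at an unadjusted p under 0.05 (4.64% of all genes), and its median was 0.211 without double replicate 1 and -0.155 without double replicate 2.

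In the PTGC line the double against control gave a median of -0.07, with 16 of 80 positive, against 0.00 over all tested genes. Without control replicate 3 the members' median was -0.00989. At an unadjusted p under 0.05 there were 0 members, beside 11.5% of all genes, and edgeR also found 0. All doubles lay below all controls for 3 members (9.05% of all genes) and above for 0 (8.98%). Rpl11, which with Rpl5 binds 5S RNA and Mdm2, had 2744, 2638 and 2775 normalized counts in doubles and 2873, 2868 and 3166 in controls, with no overlap (-0.13 ± 0.09). Rpl5 had 3255, 3129 and 3683 in doubles and 3289.5, 3079 and 4579 in controls, which overlapped (-0.10 ± 0.14).
Rpl22l1 was the lowest member at -0.38 ± 0.22 (limma adjusted p = 0.498), with 461, 354 and 529.6 in doubles and 511, 435 and 851 in controls. Rps18 was the highest at 0.24 ± 0.13, with 1991, 1935 and 2186 in doubles and 1590.0, 1515 and 2119 in controls. Control replicate 3 was the high control in both genes, and without it Rpl22l1 stood at -0.0925 and Rps18 was called (0.39, adjusted p = 0.0493), the only member called then, beside 1.07% of all genes.
Rpl34 had 1524, 827 and 1509 in doubles and 1583, 1457 and 954 in controls, with 1 low library in each group.

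Intervals of 4 core members show the precision reached. In the FST Ptpmt1 knockout against control, the 95% interval of the log2 fold change was -0.35 to 0.21 for Rps6, -0.27 to 0.21 for Rplp0, -0.37 to 0.20 for Rplp1 and -0.11 to 0.27 for Rpl10. In the PTGC double against control it was -0.26 to 0.16 for Rps6, -0.23 to 0.20 for Rplp0, -0.27 to 0.25 for Rplp1 and -0.31 to 0.20 for Rpl10. A difference of 1 on the log2 scale in either direction lies outside all 8 intervals.

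Other genes of the translation apparatus were read from lists chosen with earlier results of these data known. Of the translation factors and other messages with a pyrimidine tract, 0 of 21 tested were called in each of the 13 comparisons, and of 50 ribosome biogenesis factors 0 were called. The snoRNA host RNAs, noncoding genes with the same kind of start site, likewise had 0 calls.
The list of the integrated stress response and mTORC1 held calls. Atf4, the response's transcription factor, rose in the Ptpmt1 knockout of FST (log2 fold change 0.97 ± 0.13, limma adjusted p = 0.00285) and of PHT (0.87 ± 0.12, adjusted p = 0.00191) and in the PTGC double (1.20 ± 0.11, adjusted p = 6.5e-05). It fell in the double relative to the Ptpmt1 knockout in FST (-0.74 ± 0.13, adjusted p = 0.0125) and PHT (-0.87 ± 0.12, adjusted p = 0.00212). Sesn2, an inhibitor of mTORC1 signalling, rose in the PTGC double (2.01 ± 0.12) and fell in the PHT double relative to the Ptpmt1 knockout (-1.11 ± 0.15). Ppp1r15a, which directs dephosphorylation of eIF2alpha, rose in the PTGC double (0.87 ± 0.13). These calls are 1 of 22 genes in the FST and PHT Ptpmt1 knockouts, beside 0.504% and 0.301% of all genes. In the PTGC double they are 3 of 22, beside 0.743%. For the double against the Ptpmt1 knockout, Atf4 was the 1 of 22 called in FST, beside 0.878% of all genes. Atf4 and Sesn2 were called in PHT, beside 0.327%.
Of 11 genes of p53 surveillance, which free ribosomal proteins are known to activate through Mdm2, Ccng1 rose in the FST double (0.53 ± 0.08, adjusted p = 0.0114) and Cdkn1a in the PTGC double (1.03 ± 0.16, adjusted p = 0.00668). The other 9 of the list were called in no comparison. Beside these calls, 0.144% of all genes were called in the FST double against control and 0.743% in the PTGC double. A part of ribosomal proteins in these calls was not tested. Of 6 tested nuclear-retained and small structured RNAs, Rmrp, which acts in ribosomal RNA processing, fell in the FST Ptpmt1 knockout (-1.53 ± 0.30, adjusted p = 0.0341). Meg3, a long noncoding RNA of that list, rose in the FST double against control (0.50 ± 0.09, limma adjusted p = 0.0332). It also rose in the FST double against the Ptpmt1 knockout (0.46 ± 0.09, limma adjusted p = 0.0249). The share of all genes called was 0.504% in the comparison of Rmrp, and 0.144% and 0.878% in those of Meg3.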

How the data were processed

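RNA-seq of 27 libraries in 3 tables was used. The deposited values are a normalized signal, 1 per gene and library, given by gene symbol. Per the submitters' processing notes STAR 2.5.3a, DESeq2 1.12.4 and mm10 were used, with no roles given. The sources used here name no read counter or strand setting. The 6 samples of a line with the Ptpmt1 knockout alone are not analysed here. All entries of a column were whole multiples of 1 step, and dividing by it gave whole reads within 0.1 for 100% of the deposited signal values; 0 columns were left without a sample. Depth, and the precision it gives, is 1887978 to 19405261 reads per library, and floors cover counting error only.

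limma 3.58.1 (R 4.3.3) tested log2(value + 1) with an intensity trend, two-sided, all groups of a table in 1 fit, after the filter on values of 10, in 13896 (FST), 14965 (PHT) and 14128 (PTGC) genes. Fold changes on this scale understate changes of low genes. edgeR and DESeq2 on recovered reads, other pseudocounts (0.5, 5), no filter, TMM scaling, median centring, a sex-pattern term, fewer groups and leaving out libraries were alternatives. The scripts were tested on simulated data. Members and lists were chosen with earlier results of these data known. Named members are paralogue pairs, stalk and 5S proteins, Rpsa, Rps6, the 3 highest and 3 lowest fold changes per comparison and the highest and lowest levels; Rps14, Rps15, Rps20, Rps26, Rpl7a, Rpl27a and Rpl41 were added after their values were seen. Pseudogene copies were found with BLAST 2.17.0+. Values of 1 tested member are not reported here.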

Additional observations from a re-analysis of the deposited data

Results flagged for a closer look

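In 3 members the Ptpmt1 knockout libraries stood on opposite sides of their controls in the FST and PHT lines: every FST knockout lay below every FST control and every PHT knockout above every PHT control. Rpl35a differed from control by -0.63 in FST and 0.28 in PHT (log2 scale), Rps29 by -0.61 in FST and 0.24 in PHT, and Rps27, which encodes a zinc-binding small-subunit protein, by -0.21 in FST and 0.16 in PHT. Neither side passed the adjusted threshold in limma with all libraries, and the difference between the lines was not tested. DESeq2 called Rpl35a in FST (adjusted p = 0.0153), beside 5.56% of the genes it gave an adjusted p. Without FST knockout replicate 3, limma called Rpl35a and Rps29 lower in FST, beside 6% of all genes. Of all 13873 genes tested in both tables, 62 (0.447%) lay on the same opposite sides. Below all controls in FST were 9.48% of all tested genes, and above all controls in PHT 12%. All 3 members are among the 20 shortest. Other genes of up to 570 bases had medians of -0.34, -0.31 and -0.03 in the FST knockouts and of 0.03, -0.01 and 0.09 in the PHT knockouts, relative to control means, and the part of length was not tested.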

How the results depend on the processing

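With 80 members tested, the count called in the FST Ptpmt1 knockout was 1 with DESeq2 and 0 to 5 leaving out 1 library, and in the FST double against the knockout 2 with DESeq2 and 0 to 3 leaving out 1. Leaving out 1 library gave 0 to 1 in the FST interaction, the PHT double against the Hri knockout and the PTGC double. The FST interaction's median was 0.000255 with the sex-pattern term. Leaving out 1 library, the PHT medians ran from -0.124 to 0.239 for the double against control, -0.197 to 0.174 against the Ptpmt1 knockout, -0.0932 to 0.296 against the Hri knockout and -0.155 to 0.211 for the interaction, with double replicate 2 out at the low end and double replicate 1 out at the high end. The FST median ran from -0.0910 (without control 1) to 0.0466 (without control 3) in the knockout, -0.0281 (control 1) to 0.103 (control 3) in the Eif2a mutant and 0.0355 (control 3) to 0.175 (control 1) in the interaction. The cause was not tested.
Some uncalled members changed sign. Rpl36 was 0.0124 in the Eif2a mutant with the sex-pattern term. Without Eif2a mutant 1 and double 2 together, Rps29 was 0.0250 in the FST double against control and 0.0394 against the Eif2a mutant, Rpl37 was 0.0504 against the knockout and Rpl22l1 was 0.0349 in the interaction. Rpl10a in the PHT double against the Hri knockout was 0.00452 with edgeR and 0.00481 with DESeq2. Leaving out 1 library, FST ranges were -0.81 to 0.16 for Rpl34 in the knockout, -0.40 to 0.0250 for Rps29 in the double, -0.13 to 0.84 for Rpl34 and -0.16 to 0.0700 for Rpl37 in the double against the knockout, -0.33 to 0.0946 for Rps29 against the Eif2a mutant and -0.28 to 0.0119 for Rpl22l1 in the interaction. In PHT they were -0.21 to 0.0177 for Rplp2 in the knockout, and -0.18 to 0.60 for Rps2 and -0.16 to 0.38 for Rps18 in the Hri knockout. For the PHT double they were -0.27 to 0.0615 for Rpl29 and -0.27 to 0.0713 for Rpl10a against control, and -0.28 to 0.0496 for Rpl29, -0.28 to 0.0559 for Rpl10a, -0.37 to 0.14 for Rpl41 and -0.0305 to 0.303 for Rpl7l1 against the knockout. Against the Hri knockout they were -0.28 to 0.19 for Rps7, -0.19 to 0.12 for Rplp2 and -0.17 to 0.17 for Rpl10a. In the PHT interaction they were -0.51 to 0.24 for Rps18, -0.44 to 0.0297 for Rps7, -0.37 to 0.13 for Rps12 and -0.0508 to 1.001 for Rps2. In PTGC they were -0.0339 to 0.25 for Rplp2 and -0.47 to 0.0361 for Rpl39. Where 1 library remained in a PHT group, it was assumed to vary like the other groups. No paired analysis was possible because the replicate numbers follow accession order and carry no pairing in the labels. The shallowest FST library had 1887978 reads.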

Other observations

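Rps2 was 1 of 18 PHT genes with a mean of at least 500 normalized counts and a within-group SD of at least 0.5 on the log2 scale, among 5493 genes at that level. This was looked for after its values were seen. Of those 18, Rps2 and Atp6v0c, a proton pump subunit, lie on chromosome 17, which holds 4.41% of the genes at that level. Haemoglobin genes such as Hbb-y, Hba-x, Hbb-bh1, Hba-a1 and Hbb-bs are among the rest. Atp6v0c had 655 and 1029 normalized counts in doubles, 406, 420.5 and 1009 in Ptpmt1 knockouts, 668 and 927 in Hri knockouts and 675 and 615 in controls. Its 3 highest libraries, double 2, Ptpmt1 knockout 3 and Hri knockout 2, were also the 3 highest of Rps2. In FST 12 genes met the same limits, with Rpl34 among them, and in PTGC 15 genes.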
